A study of Mus musculus with 4 samples.

Results

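The hypoxia and glycolysis genes described here are 10 genes chosen by symbol: Adm, Vegfa, Slc2a1, Hk1, Hk2, Pfkfb3, Pfkp, Pkm, Ldha and Egln3. They are 10 of the 30740 genes named on the array, and all 10 were among the 18445 kept after dim genes were left out. Each had 1 probe set of its own. The list was drawn up with the values of all 4 arrays known, so its levels and differences are a description and carry no test.

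Liver RNA was measured on 4 expression arrays, 1 for each combination of genotype and time. The wildtype mice carried a floxed YAP gene and the others were YAP-KO. All were male. Livers at 0 h came from fasted mice, and livers at 24 h from fasted mice that had received 300 mg/kg acetaminophen (APAP) by intraperitoneal injection, an overdose that injures hepatocytes. Each array held RNA pooled from 3 mice, so the spread between mice was not measured. The study asks what YAP, the coactivator that the Hippo kinases hold in check, does in regeneration after the overdose. Not given in the sources used here are the age of the mice, the Cre that deleted YAP and the cells in which it acted. No array came from mice kept to 24 h without acetaminophen, so the drug cannot be told apart from the time between the arrays.

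When oxygen is short, the transcription factor HIF-1 (HIF-1 alpha, from Hif1a, with its partner ARNT) is no longer hydroxylated by the prolyl hydroxylases of the Egln genes and escapes destruction. It binds short hypoxia response elements and raises genes for glucose uptake, glycolysis, vessel growth and vasodilation. Adult hepatocytes mostly make glucose rather than burn it, and rely on their own forms of several proteins, such as the glucose transporter Slc2a2 and the pyruvate kinase Pklr. Slc2a1, Hk2 and Pkm are better known from other cells and from dividing tissue. YAP itself does not bind DNA and acts through TEAD factors.

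Values are log2, so 1 unit is a 2-fold difference. Yap1 went from 7.54 at 0 h to 8.24 at 24 h in wildtype and from 6.31 to 6.01 in YAP-KO, so both YAP-KO arrays were below both wildtype arrays, as the labels imply. The defining hepatocyte markers Alb, Apoa1, Ttr and Apob were at the top of the scale on every array (19.83 to 19.93). They equalled each array's highest value or lay within 0.01 of it, so a loss of hepatocytes may not show in them. Other hepatocyte markers differed between times: Hnf4a by -0.90 in wildtype and -1.45 in YAP-KO, Cps1 by -0.76 and 0.04, Asgr1 by -0.62 and 0.58. Cps1 was itself close to the top of the scale (19.81 to 19.85) on every array but wildtype at 24 h (19.08), so its differences may be understated. No level can be given a detection limit. Genes were kept if their mean over the arrays was at or above 4.322, the 40th percentile.

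The promoters of the genes with the 3 largest differences between times in wildtype are printed first, with that of Ldha, whose window held the most matches to the core of the hypoxia response element. Each runs 5′ to 3′ over the 250 bases before a RefSeq transcription start (GRCm38.p6). Capitals mark ACGTG and GCGTG, the spellings of that core, on either strand. On the opposite strand they read CACGT and CACGC.
Adm (chr7:110627407-110627656, plus strand): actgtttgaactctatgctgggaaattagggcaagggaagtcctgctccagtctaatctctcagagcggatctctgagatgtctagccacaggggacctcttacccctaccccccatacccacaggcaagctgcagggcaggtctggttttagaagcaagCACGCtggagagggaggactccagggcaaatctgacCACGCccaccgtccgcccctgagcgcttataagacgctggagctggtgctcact
Slc2a1 (chr4:119108495-119108744, plus strand): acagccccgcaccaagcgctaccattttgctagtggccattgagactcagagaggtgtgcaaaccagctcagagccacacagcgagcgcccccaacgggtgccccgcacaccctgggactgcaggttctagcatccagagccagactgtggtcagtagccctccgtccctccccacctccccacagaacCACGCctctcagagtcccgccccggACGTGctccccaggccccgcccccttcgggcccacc
Pkm (chr9:59656977-59657226, plus strand): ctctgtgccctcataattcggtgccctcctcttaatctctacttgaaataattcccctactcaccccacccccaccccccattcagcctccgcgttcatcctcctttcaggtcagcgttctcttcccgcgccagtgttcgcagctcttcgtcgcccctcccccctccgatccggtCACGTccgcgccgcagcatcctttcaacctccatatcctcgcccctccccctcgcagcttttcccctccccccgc
Ldha (chr7:46845554-46845803, plus strand): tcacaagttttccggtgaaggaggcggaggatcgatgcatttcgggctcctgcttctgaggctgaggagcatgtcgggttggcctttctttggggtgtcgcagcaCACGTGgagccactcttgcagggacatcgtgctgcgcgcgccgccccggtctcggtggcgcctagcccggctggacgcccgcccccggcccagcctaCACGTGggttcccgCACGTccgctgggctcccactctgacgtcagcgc

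All 10 genes matched the RefSeq promoter table, with 15 windows in all, since 5 genes have 2 listed starts. The core ACGTG was in at least 1 window of 7 of the 10 genes, against 18.5% of the 27025 genes in the table. GCGTG was likewise in 7 of 10, against 30.9%. One spelling or the other was in all 10 genes, against 41.5%. For Hk1, Vegfa and Pkm it was only in the window of the more downstream of the 2 listed starts. The window of their upstream start held neither. The Adm window held GCGTG at 90 and 54 bases before the start and no ACGTG. The Slc2a1 window held GCGTG at 61 bases and ACGTG at 36 bases before the start. The Pkm window shown held ACGTG at 75 bases before the start, while the window of the other Pkm start held neither. Ldha had 5 matches to ACGTG in the window shown, 4 of them in CACGTG, which reads ACGTG on both strands and is also the letters of an E-box. CACGTG was in windows of 2 of the 10 genes, Ldha and Pfkfb3, against 6.86% of all genes.

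The member windows were richer in G and C than most. Their median GC content was 61.6%, against 52.4% over all 32851 windows, and their median count of CG pairs was 14 against 6. Several starts per gene also give more chances of a match, and 15.4% of all genes have more than 1. Among windows with at least the GC content of the poorest member window (49.6%), 3977 of 19862 held ACGTG and 7939 held GCGTG, where 8 and 7 of the 15 member windows did. The TEAD-binding letters GGAATG, on either strand, were in none of the 15 windows, against 12.6% of all windows. A match is a description of these letters and not a binding site, and a missing match says only that the letters are not in this window.

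In wildtype liver all 10 genes were higher at 24 h than at 0 h (54.5% of all genes were), by 0.63 to 6.73, and 6 of them by 2-fold or more (Adm, Slc2a1, Pkm, Egln3, Pfkp and Ldha). In YAP-KO liver 9 of the 10 were above their 0 h value (58.2% of all genes were), but only Slc2a1 and Pkm by 2-fold or more. At 24 h the YAP-KO value was below the wildtype value for all 10 genes (51.9% of all genes), by 2-fold or more for Adm, Slc2a1, Pkm, Egln3 and Pfkp (the last not after quantile normalization, at -0.92). Before acetaminophen the genotypes were close, apart from Pfkfb3 and Egln3. In bulk liver, fewer cells of a type and less RNA per cell cannot be told apart.

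**Figure D1:**
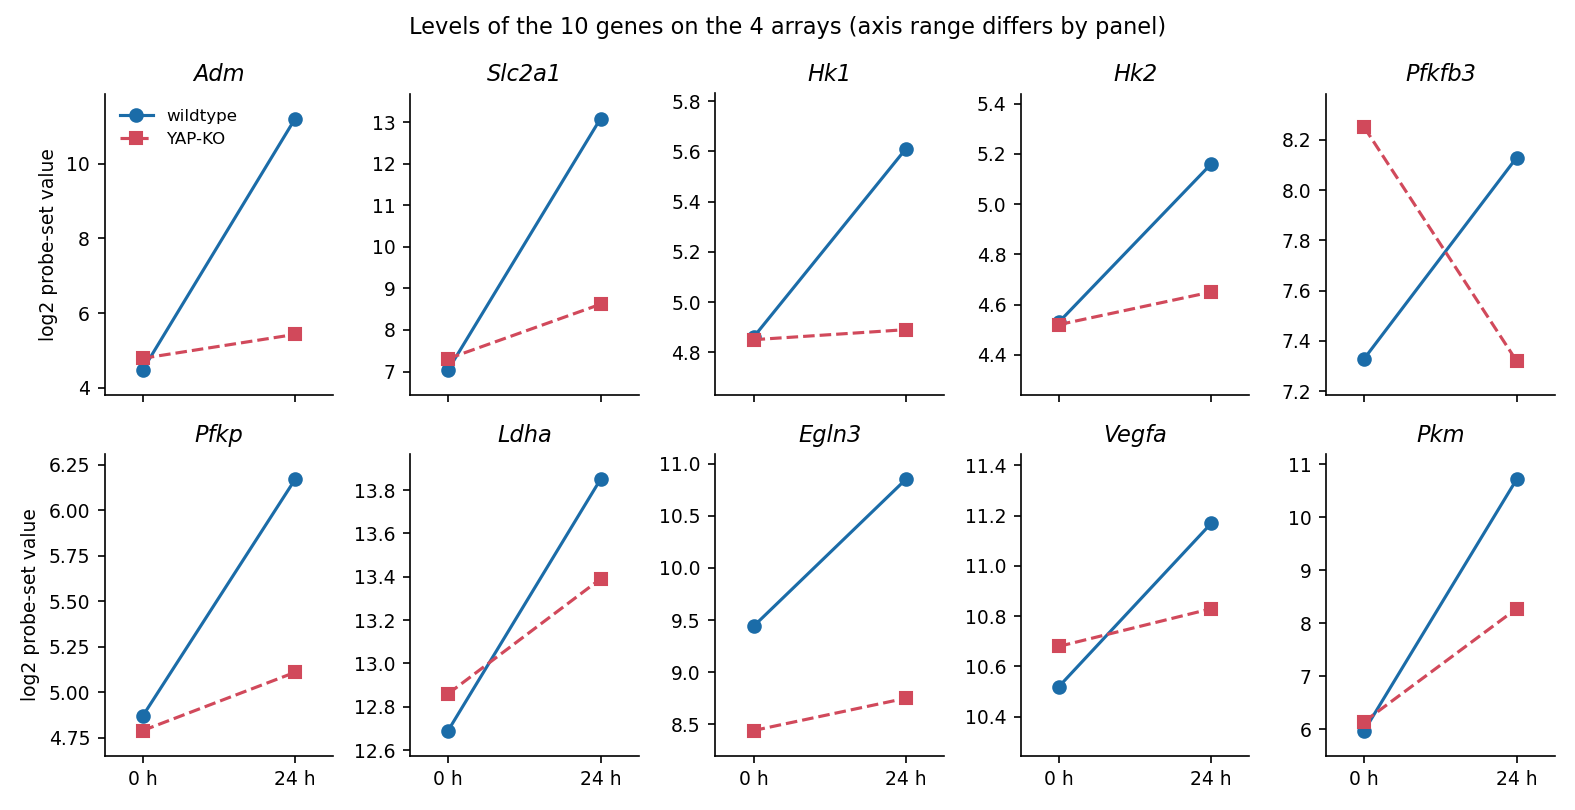
Log2 probe-set value (vertical axis, range set for each panel) of each of the 10 genes at 0 h and 24 h, 1 array per point, wildtype as blue circles and YAP-KO as red squares. The wildtype 24 h value is the highest of the 4 in 9 panels, and in the Pfkfb3 panel the YAP-KO 0 h value of 8.25 is the highest.

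The hormone genes come first. Adm encodes adrenomedullin, a vasodilator peptide. It read 4.48 in wildtype and 4.79 in YAP-KO before the overdose, then 11.21 in wildtype and 5.43 in YAP-KO after it. Only the wildtype 24 h array was high. Both 0 h values lay close to the array medians of all probe sets (4.47 and 4.46) and have no known floor, so no fold or rank between times is given. As deposited, the log2 values differed between times by 6.73 in wildtype and 0.64 in YAP-KO. YAP-KO minus wildtype at 24 h was -5.78. Vegfa encodes the vascular endothelial growth factor VEGF-A. It read 10.52, 10.68, 11.17 and 10.83 in the same order of arrays, a spread of 0.65 from lowest to highest. The wildtype 24 h array was again the highest, with a genotype difference of only -0.34 at 24 h.

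Glucose enters cells through carriers and is trapped by hexokinases. Slc2a1 encodes GLUT1, the glucose carrier of many cells outside the adult hepatocyte. It went from 7.04 at 0 h to 13.09 at 24 h in wildtype, and from 7.31 to 8.62 in YAP-KO. Both 24 h arrays were above both 0 h arrays, and the wildtype one stood far above the rest. The difference between times was 6.05 in wildtype (66.3-fold, 10th highest) and 1.31 in YAP-KO (2.48-fold), and the genotype difference at 24 h was -4.47 (22.2-fold lower in YAP-KO). Hk1 and Hk2 encode hexokinases that phosphorylate glucose at low concentrations. Hk1 went from 4.86 to 5.61 in wildtype and from 4.85 to 4.89 in YAP-KO. For Hk2 the wildtype values were 4.53 and 5.16, the YAP-KO values 4.52 and 4.65. Both showed 3 nearly equal arrays and a higher wildtype 24 h array, by 0.75 for Hk1 and 0.63 for Hk2 over wildtype at 0 h. Both were dim throughout, and neither reached 2-fold in any comparison.

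The next step is phosphofructokinase, which commits sugar to glycolysis. Pfkp, the platelet type of that enzyme, went from 4.87 to 6.17 in wildtype and from 4.79 to 5.11 in YAP-KO. Its values had the same shape as those of Hk1, with a difference of 1.3 between times in wildtype, 0.32 in YAP-KO and -1.06 between the genotypes at 24 h. Pfkfb3 makes fructose 2,6-bisphosphate, the activator of phosphofructokinase, and was the exception among the 10. Its wildtype value went up from 7.33 to 8.13, and its YAP-KO value down from 8.25 to 7.32. The high arrays were YAP-KO at 0 h and wildtype at 24 h, and the low ones were nearly equal. The difference between times was thus 0.80 in wildtype and -0.93 in YAP-KO. Set against the 0 h array of the other genotype, as an alternative chosen after seeing the data, these differences were -0.12 and -0.01.

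At the end of glycolysis, Pkm encodes the pyruvate kinase of muscle and proliferating cells (its M1 and M2 forms are not separated here). It went from 5.98 to 10.72 in wildtype and from 6.15 to 8.28 in YAP-KO. Both 24 h arrays were well above both 0 h arrays. The difference between times was 4.74 in wildtype (26.7-fold) and 2.13 in YAP-KO (4.38-fold), the highest of the 10 genes in YAP-KO and 73rd of all genes there. The genotype difference at 24 h was -2.44 (5.43-fold lower in YAP-KO). Ldha, the lactate dehydrogenase subunit that favours making lactate, went from 12.69 to 13.85 in wildtype and from 12.86 to 13.39 in YAP-KO. Its differences of 1.16 in wildtype and 0.53 in YAP-KO ran the same way as those of Pkm and were smaller. With the YAP-KO 0 h array as baseline the wildtype difference was 0.99, just under 2-fold.

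Egln3 encodes PHD3, a prolyl hydroxylase that marks HIF for destruction and is itself a HIF target. It went from 9.44 to 10.85 in wildtype and from 8.44 to 8.75 in YAP-KO. Both YAP-KO arrays lay below both wildtype arrays. It was the only gene of the 10 to differ 2-fold between the genotypes at 0 h, at -1.0, exactly the threshold, and it was not counted once arrays were centred (-0.99) or quantile normalized (-0.96). At 24 h the genotype difference was -2.10 (4.29-fold). The differences between times were 1.41 in wildtype and 0.31 in YAP-KO. With the 0 h array of the other genotype as baseline they were 2.41 and -0.69.

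**Figure D2:**
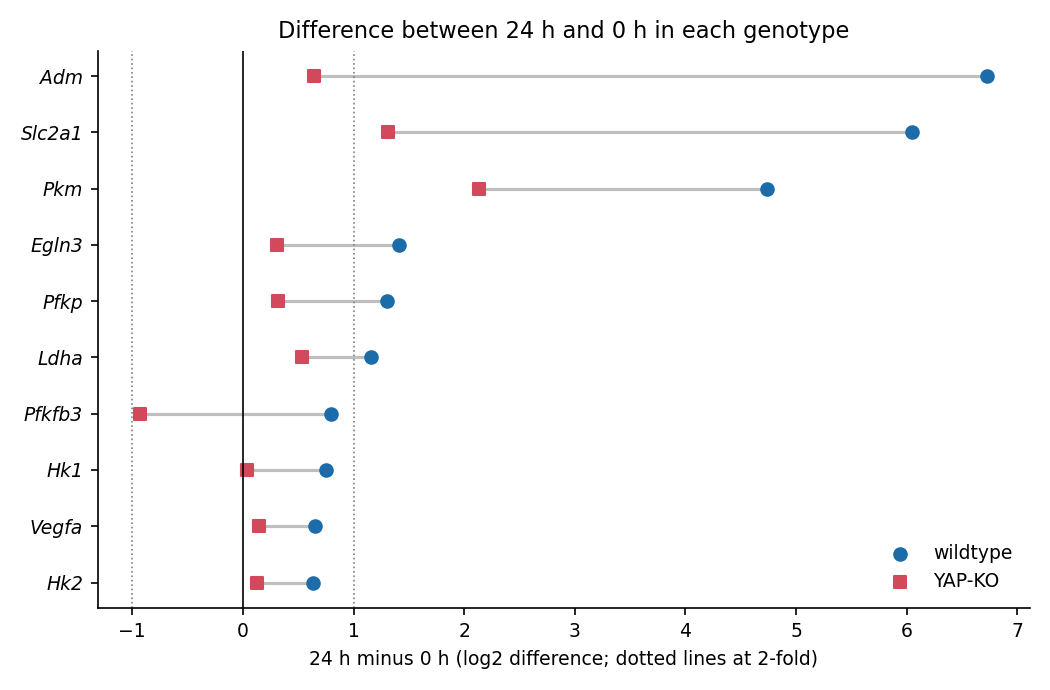
Difference between 24 h and 0 h (log2, horizontal axis) for each gene, wildtype as blue circles and YAP-KO as red squares joined by a grey line, with 1 pair of arrays per point. Every wildtype point lies to the right of its YAP-KO point, by 6.09 for Adm and by 0.50 for Hk2 and Vegfa, and Pfkfb3 alone lies below 0 in YAP-KO.

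Counts over all genes are the background for these numbers. They carry no weight as support, because the 10 genes were picked with the same differences in view. At 24 h against 0 h in wildtype, 6 of 10 were 2-fold higher, against 12.7% of the 18445 genes, while 2-fold lower were 0 of 10, against 5.9%. The median of the 10 was 1.23, beside 0.07 over all genes. In YAP-KO the count was 2 of 10 higher, against 4.72%, and 0 lower, against 2.22%, with a median of 0.32 against 0.07. Between the genotypes at 24 h, 5 of 10 were 2-fold lower in YAP-KO, against 5.74%, and 0 higher, against 3.24%, with a median of -0.94 against -0.02. At 0 h it was 1 of 10 lower, against 0.878%, and 0 higher, against 1.01%, with a median of 0.16 against -0.03. The difference between the responses, YAP-KO minus wildtype, was below 0 for all 10, as it was for 50.0% of all genes. It was beyond 2-fold for 5 (Adm -6.09, Slc2a1 -4.74, Pkm -2.61, Pfkfb3 -1.73 and Egln3 -1.10), against 7.5%, and 0 were beyond 2-fold on the other side, against 5.67%. The median was -1.04 against 0.00. In 9 of 10 the wildtype 24 h array was the highest, as it was for 38.3% of all genes. These 5 contrasts come from the same 4 arrays and are not separate evidence.

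Scaling moved counts both over all genes and among the 10. After quantile normalization 57.7% of the genes beyond 2-fold in wildtype were higher at 24 h, against 68.2% as deposited, and 48.6% of those beyond 2-fold between genotypes at 24 h were higher in YAP-KO, against 36.1%. Centring the arrays moved the median of all genes between times from 0.07 to 0.22 in wildtype and from 0.07 to 0.17 in YAP-KO. Between genotypes at 24 h, quantile normalization took Pfkp from -1.06 to -0.92, leaving 4 of the 10 genes 2-fold lower in YAP-KO. In the YAP-KO response it took Pfkfb3 to -1.05, 1 of 10 lower. Under both scalings all 10 genes stayed above 0 in the wildtype response and below 0 between the genotypes at 24 h.

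**Figure D3:**
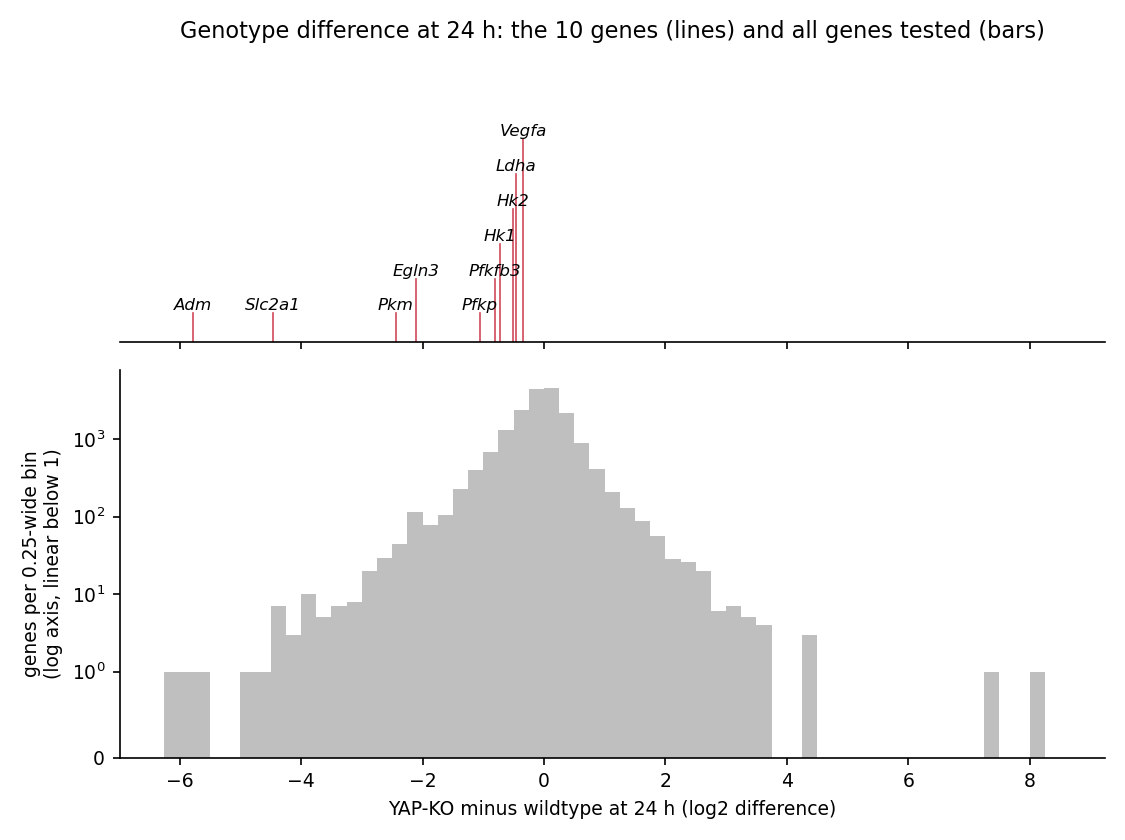
YAP-KO minus wildtype at 24 h (log2 difference, horizontal axis): the lower panel counts all 18445 genes in bins of 0.25 on a log axis, and the red lines above mark the 10 genes, their height serving only to separate the names. All 10 lie below 0, from -5.78 for Adm to -0.34 for Vegfa.

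Of 10 genes of oxygen sensing listed, 8 passed the filter. In wildtype 4 of the 8 were 2-fold higher at 24 h (12.7% of all genes were) and 0 of 8 were lower. The list median was 0.74, beside 0.07 for all genes. In YAP-KO 0 of 8 differed 2-fold, where 4.72% of all genes were higher and 2.22% lower, and the list median was -0.15. Hif1a went from 10.79 to 14.03 in wildtype and from 10.85 to 11.32 in YAP-KO. Cited2, which encodes a protein that competes with HIF for its coactivators, went from 8.91 to 11.75 in wildtype and from 8.77 to 8.52 in YAP-KO. On both probe sets only the wildtype 24 h array was high. Egln1, the main prolyl hydroxylase of HIF, was 1.20 higher in wildtype at 24 h and -0.19 in YAP-KO. Epas1, which encodes HIF-2 alpha, was 1.05 higher in wildtype, and its YAP-KO 0 h value was already 1.10 above wildtype, so that all arrays but wildtype at 0 h read 12.79 to 12.94. Vhl, the adaptor that targets hydroxylated HIF, was 0.44 higher in wildtype and 0.20 in YAP-KO. Egln2, another prolyl hydroxylase gene, read lowest on the wildtype 24 h array (7.43, against 7.56 to 7.76 on the others), and Arnt read highest on the YAP-KO 0 h array (9.08). RNA levels of these genes do not report HIF protein, which is set largely by its destruction.

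Among 20 further HIF target genes outside glycolysis, 15 passed the filter. In wildtype 6 of 15 were 2-fold higher at 24 h, against 12.7% of all genes, and 1 was lower, against 5.9%. Their median was 0.36, beside 0.07. In YAP-KO 0 were higher, against 4.72%, and 1 lower, against 2.22%. At 24 h 5 of 15 were 2-fold lower in YAP-KO, against 5.74% of all genes, and 0 higher. Hilpda, a lipid droplet protein gene, went from 5.0 to 10.11 in wildtype and from 5.41 to 5.51 in YAP-KO, so that, as for Adm, only the wildtype 24 h array was high. Tfrc, the transferrin receptor gene, was 1.79 higher in wildtype and 0.84 in YAP-KO. Ndrg1 was 1.45 and 0.55 higher, Bhlhe40, a transcriptional repressor gene, 1.37 and 0.21, and the mTORC1 inhibitor gene Ddit4 1.27 and 0.03. Kdm3a, a histone demethylase gene, was 1.38 higher in wildtype and -0.15 in YAP-KO. The HIF target list thus differed in part, and its other 8 genes stayed within 2-fold in wildtype.

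**Figure D4:**
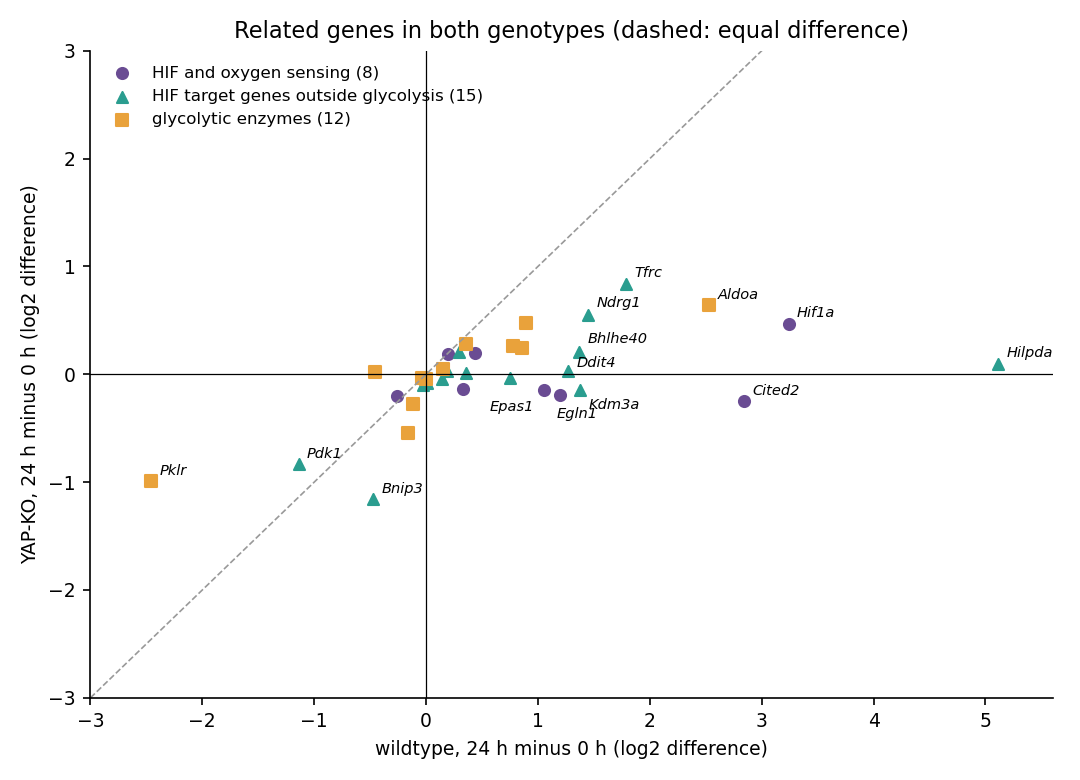
Difference between 24 h and 0 h (log2) in wildtype (horizontal axis) and in YAP-KO (vertical axis) for the genes of 3 lists that passed the filter: oxygen sensing (8, purple circles), other HIF targets (15, green triangles) and other glycolytic enzymes (12, orange squares). Hilpda, Hif1a, Cited2 and Aldoa lie far to the right, at 5.11, 3.24, 2.84 and 2.53 in wildtype, and close to 0 in YAP-KO, at 0.10, 0.47, -0.25 and 0.64, while Pklr lies at -2.46 and -0.99.

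The rest of the glycolytic chain did not share the size of these differences. Of 17 other glycolytic enzyme genes, 13 had a probe set of their own and 12 passed the filter. Only Aldoa was 2-fold higher in wildtype at 24 h and only Pklr 2-fold lower, 1 of 12 each, against 12.7% and 5.9% of all genes. The list median of 0.08 was close to the 0.07 of all genes. Aldoa, the aldolase of muscle and most other tissues, went from 8.36 to 10.89 in wildtype and from 8.56 to 9.20 in YAP-KO. Pgk1, which makes ATP in glycolysis, was 0.89 higher in wildtype and 0.48 in YAP-KO, and Pgam1, the mutase after it, 0.86 and 0.24. In YAP-KO 0 of 12 differed 2-fold in either direction, where 4.72% of all genes were higher and 2.22% lower. Of the Pfkfb relatives and regulators 3 of 5 could be read, and only Gckr, the inhibitor of the hepatic glucokinase, differed 2-fold, at -1.40 in wildtype and -1.03 in YAP-KO. The differences thus concentrated in single steps and not along the whole chain.

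At several of those steps the hepatocyte form of the protein went the other way. Slc2a2, which encodes GLUT2, the main glucose carrier of hepatocytes, went down from 15.05 to 11.38 in wildtype and from 14.18 to 12.75 in YAP-KO. These differences of -3.67 and -1.43 stand beside 6.05 and 1.31 for Slc2a1. Pklr, the pyruvate kinase of liver and red cells, went down from 12.20 to 9.74 in wildtype and from 11.62 to 10.63 in YAP-KO. Its differences were -2.46 and -0.99, where those of Pkm were 4.74 and 2.13. At both steps the wildtype 24 h array was the extreme of the 4 for both genes, in opposite directions. The lactate and pyruvate carrier gene Slc16a1 was 1.69 higher in wildtype and 0.95 in YAP-KO. Of 7 transport genes tested, Slc16a1 and Slc2a2 were those beyond 2-fold in wildtype, 1 higher and 1 lower, against 12.7% and 5.9% of all genes.

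What becomes of pyruvate depends on pyruvate dehydrogenase, which the Pdk kinases switch off. Pdk4, the kinase gene that fasting and fatty acids raise, went from 7.28 to 11.56 in wildtype and from 7.97 to 7.31 in YAP-KO. Only the wildtype 24 h array was high. Pdk2 went from 10.92 to 7.41 in wildtype and from 9.93 to 9.28 in YAP-KO, lowest on that same array. Of 7 genes of pyruvate fate tested, these 2 were beyond 2-fold in wildtype, 1 in each direction, and 0 were in YAP-KO. Over all genes 12.7% were higher and 5.9% lower in wildtype, and 4.72% and 2.22% in YAP-KO. Pdhb, a subunit of the dehydrogenase itself, was -0.89 and -0.81, nearly equal in the genotypes.

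**Figure D5:**
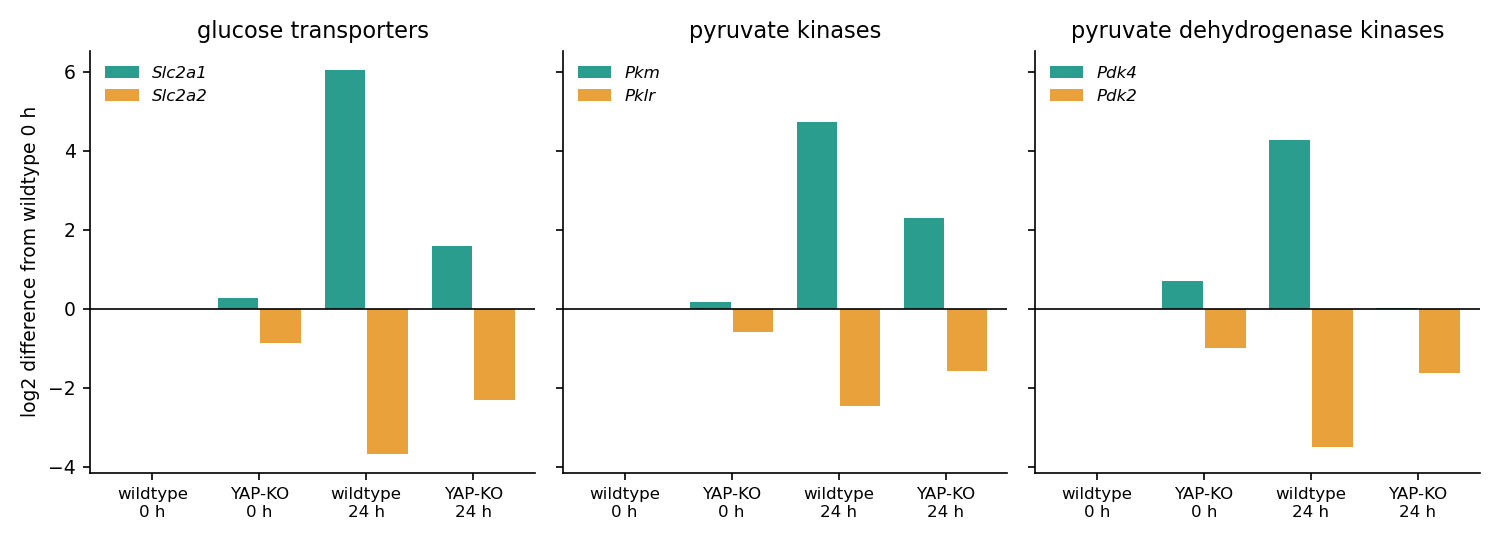
Log2 difference of each array from the wildtype 0 h array (vertical axis) for 3 pairs of genes, with 1 array per bar. Slc2a1, Pkm and Pdk4 (green) point up and Slc2a2, Pklr and Pdk2 (orange) point down on the wildtype 24 h array, at 6.05, 4.74 and 4.28 against -3.67, -2.46 and -3.51.

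The partners of the hormone genes were nearly level. Of 8 genes for adrenomedullin relatives and receptors, 3 passed the filter, and 0 of them differed 2-fold between times or genotypes. Calcrl, the receptor that binds adrenomedullin together with a RAMP protein, read 8.66, 8.45, 8.74 and 8.72 in the order of arrays used for Adm. Ramp2, its partner in endothelium, read 5.47, 5.66, 5.38 and 5.36, and Ramp3 differed by -0.23 in wildtype and 0.13 in YAP-KO. Of 8 VEGF family and receptor genes tested, 0 differed 2-fold in any comparison. Over all genes the share was 0.878% to 12.7% per direction and comparison, so 0 in lists this short says little. Vegfc was 0.70 higher in wildtype at 24 h, Flt4, its receptor gene, 0.62 higher, and Kdr, the main VEGF-A receptor gene, -0.63. In YAP-KO these were -0.04, -0.25 and 0.03.

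The genes whose 4 centred values lay nearest to those of Adm, by Euclidean distance over the 4 arrays, were Dusp5 (distance 0.78), Slc2a1 (0.93), Slc7a11 (1.28), Nid1 (1.28) and Sult1e1 (1.32), of 13235 named genes other than predicted and RIKEN ones. Dusp5 encodes a phosphatase of ERK, Slc7a11 the cystine carrier, Nid1 the basement membrane protein nidogen and Sult1e1 an oestrogen sulfotransferase. Slc2a1, itself on the list, was thus the 2nd nearest. Pkm ranked 24th at 2.38 and Egln3 308th at 3.95. The others ranked between 752nd (Pfkp) and 3655th (Pfkfb3). With 4 points and 1 high array, many genes with a large wildtype response must lie close, and the distance says nothing of shared control.

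Markers of other cells also differed between the arrays. The summed level of 9 neutrophil markers (log2 of the sum of linear values) went from 8.44 to 11.34 in wildtype and from 8.56 to 9.51 in YAP-KO. Of its 8 markers above the filter, 5 were 2-fold higher in wildtype at 24 h, 3 in YAP-KO, and at 24 h the YAP-KO value of 5 was 2-fold below wildtype. The shares over all genes were 12.7%, 4.72% and 5.74%. Ly6g, a defining neutrophil marker, and Camp went the other way, at -0.63 and -0.65 in wildtype and 0.53 and 0.18 between the genotypes at 24 h. The sum was lowest on the wildtype 0 h array, then YAP-KO 0 h, YAP-KO 24 h and wildtype 24 h. Adm, Slc2a1, Ldha, Vegfa and Pkm among the 10 genes had that order. The stellate cell and cholangiocyte sums and the alpha haemoglobin probe sets below had it too, so it is not particular to neutrophil markers. The sum of 8 endothelial markers went from 12.54 to 14.67 in wildtype and from 12.52 to 13.13 in YAP-KO, led by Cdh5 (3.23 higher in wildtype, 1.70 in YAP-KO) and Lyve1 (5.51 and 0.89), while Clec4g was -0.26 and -0.23 and Kdr -0.63 and 0.03. Of the 8 endothelial markers 3 were 2-fold higher in wildtype (12.7% of all genes) and 1 in YAP-KO (4.72%). The list medians did not follow the sum, at 0.60 in wildtype, 0.74 in YAP-KO and -0.07 between the genotypes at 24 h, and Stab2 and Emcn were 0.20 and 0.12 higher in YAP-KO then. The sum of 10 monocyte and macrophage markers went from 11.51 to 13.98 in wildtype and from 11.25 to 13.90 in YAP-KO. It was about equally high in both genotypes at 24 h. In each, 7 of 10 markers were 2-fold higher (12.7% and 4.72% of all genes), though not the same 7. Single markers differed between the genotypes at 24 h. Cd14 (-3.73) and Csf1r (-1.27) were 2-fold lower in YAP-KO (5.74% of all genes) and Clec7a (1.53) higher (3.24%). The sum of 8 stellate cell markers went from 10.09 to 11.43 in wildtype and from 10.26 to 11.09 in YAP-KO. Here too the list medians did not follow the sum, at 0.31 in wildtype, 0.54 in YAP-KO and 0.20 between the genotypes at 24 h. The sum of 5 cholangiocyte markers went from 7.52 to 9.28 and from 7.65 to 8.58. Sox9 was the 1 marker of these 2-fold higher, and Krt19 and Krt7 read between 4.30 and 4.56. The Kupffer cell sum, down from 14.75 to 13.49 and from 15.09 to 14.11, followed C6, its brightest marker, while 4 of 7 Kupffer markers were 2-fold higher in wildtype against 1 lower. The 5 lymphocyte markers summed to 6.41 to 6.57.

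Red cell genes were read as well, since Hk1 is also the hexokinase of red cells. The probe sets of the alpha and beta haemoglobin genes, each annotated to several genes, were 2.17 to 3.61 higher in wildtype at 24 h. In YAP-KO they were 0.40 to 0.76 higher. The red cell membrane gene Slc4a1 stayed at 3.85 to 3.96, below the filter level, and Alas2, the erythroid heme synthesis gene, was -2.24 and -1.86. No value of these marker lists is 0 on an array scale, and the part of any of these cells in the levels of the 10 genes was not tested.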

How the data were processed

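Total RNA from liver, extracted with Trizol and biotin-labelled (GeneChip WT Plus kit, per the labels' protocols), was hybridised to 4 arrays, each a pool of 3 mice. The deposited values of 65956 probe sets were taken as log2 from their range (2.24 to 19.93). The log base, summarisation, background correction and normalization are not given in the sources used here. Array medians were 4.47 and 4.32 in wildtype (0 h and 24 h) and 4.46 and 4.36 in YAP-KO. No member was saturated.

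The platform annotation named the probe sets: 31212 carried 1 gene (counting repeats and synonyms of 1 Entrez gene once), 1538 several and 33206 none, and 827 symbols were updated through Entrez identifiers to GRCm38.p6. The brightest probe set stood for a gene. Genes at or above the 40th percentile of the mean were kept. Differences are log2, counted at 2-fold. No test was made, since there is 1 array per group and members and lists were chosen with earlier results of these data known. For both reasons an additive fit, with its 1 residual degree of freedom, was left out. Genes named were the members, up to 4 per pathway list with the largest wildtype response or genotype difference at 24 h, the 5 nearest to Adm, and Yap1. Others are named as list examples. The number of arrays limits the precision of every value. Alternatives were 2 scalings, the mean of probe sets, 2 filters, 2 fold thresholds and the other 0 h array. The counting was tested on simulated data. Python 3.11.15, pandas 2.3.3, NumPy 2.4.6 and Matplotlib 3.10.9 were used.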

Additional observations from a re-analysis of the deposited data

Results flagged for a closer look

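Pfkfb3 went in opposite directions in the genotypes, 0.80 at 24 h minus 0 h in wildtype and -0.93 in YAP-KO, a difference of responses of -1.73. Pdk4 did so too, 4.28 higher in wildtype and -0.66 in YAP-KO, a difference of -4.94. These were the 2 of 47 genes checked that moved by at least 1.5-fold in opposite directions. Each rests on 1 array per group, and the difference was not tested.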

How the results depend on the processing

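No paired analysis was possible because each group has 1 array. For the same reason no array could be left out. With centring and with quantile normalization, all 50 member differences per setting moved by less than 1.5-fold. The mean of probe sets could not move them, since each member has 1 probe set. Egln3 at 0 h, at the threshold, dropped out with centring and with quantile normalization, leaving 0 of 10 genes 2-fold lower in YAP-KO. Quantile normalization brought Pfkfb3 to 1 of 10 lower in the YAP-KO response and left 4 of 10 lower between genotypes at 24 h, without Pfkp. The 60th percentile filter left 7 members, without Hk1, Hk2 and Pfkp, and moved the median between genotypes at 24 h to -2.10 and that of the difference of responses to -1.73, through fewer and brighter genes. At 1.5-fold, 10 were higher in wildtype at 24 h, 1 lower at 24 h than at 0 h in YAP-KO, 1 higher in YAP-KO than in wildtype at 0 h, and 8 below in the difference of responses. At 4-fold these were 3 higher in wildtype and 3 below in the difference of responses, with 1 higher at 24 h than at 0 h in YAP-KO and 0 below wildtype at 0 h. With the other genotype's 0 h array, the counts held within 1.5 times (6 to 5 in wildtype, without Ldha), and 4 of 20 member differences, those of Pfkfb3 and Egln3, moved by more than 1.5-fold. With no filter the members and their counts had to be the same, since all 10 had passed the filter. Without detection calls, dim members (Hk1, Hk2, Pfkp and Adm at 0 h) have no known floor.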

Other observations

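Some HIF target genes stood apart from the rest of their list, and are named here after their values were seen. Pdk1, another gene of the kinases that switch off pyruvate dehydrogenase, went down from 7.99 to 6.85 in wildtype and from 7.59 to 6.76 in YAP-KO (-1.14 and -0.83). Bnip3, a mitophagy receptor gene, went from 11.09 to 10.62 in wildtype and from 11.13 to 9.97 in YAP-KO (-0.47 and -1.16). Its relative Bnip3l was level, at 9.04, 9.08, 9.05 and 9.0. Car9, a widely used hypoxia marker, and Epo did not pass the filter, at 3.99 to 4.48 and 3.53 to 3.66. In wildtype neither Pdk1 nor Bnip3 was therefore higher at 24 h than at 0 h, where Adm, Hilpda and Slc2a1 were. At 24 h YAP-KO minus wildtype was -0.09 for Pdk1 and -0.65 for Bnip3, the direction of the 10 genes.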
